A study of Homo sapiens with 120 samples.

Results

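The genes described here encode the proteins of the cytosolic ribosome. They were taken from the deposited gene tables by symbol (RPL or RPS followed by a number, RPLP0, RPLP1, RPLP2, RPSA and FAU, without RPS4Y1, the RPS6K kinases or pseudogenes) and by a mean level of at least 20 TPM (transcripts per 1000000, a read count divided by transcript length and scaled to a fixed total) over the 120 libraries. Of 57665 genes in the tables, 88 had a matching name and 84 met the level, 51 of the large subunit and 33 of the small subunit. By this rule, which was set with earlier results of these data known, the members were selected on mean level and name, so the levels are given as a description, while treatment effects were tested. The members just inside the level were RPL10L at 39.0 TPM, RPL39L at 44.6, RPL7L1 at 91.4, RPL26L1 at 128 and RPL22L1 at 179.5. RPL3L, just outside it, had a mean of 1.07 TPM. All 84 members passed the filter on low counts used for testing, whichever group they were highest in.

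Ribosomal proteins are made in near-equal amounts and assembled with ribosomal RNA in the nucleolus, and their mRNAs are among the most abundant in a dividing cell. Most of these mRNAs begin with a 5′ terminal oligopyrimidine tract, called TOP, a C at the cap followed by a run of C and U through which mTORC1 and LARP1 set their translation and stability. The integrated stress response begins when a kinase phosphorylates eIF2α, which lowers general translation while the mRNA of the transcription factor ATF4 is translated better.

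The study measured RNA in U2OS cells, an established human osteosarcoma line, as the line without a transgene (Parental) and as 1 derived line (Dmr-PERK) that stably carries the kinase domain of mouse PERK, an eIF2α kinase, joined to a DmrB domain. The ligand AP20187, called dimerizer, brings DmrB domains together and so switches the fused kinase on; its dose was 0.20 nM to 2 digits. Thapsigargin, which empties calcium from the endoplasmic reticulum, was used at 100 nM, and sodium arsenite, an oxidative stressor, at 0.05 mM, at doses that the series' text describes as giving similar eIF2α phosphorylation. Both lines were left untreated for 0, 4, 8, 16 and 24 h or treated with each compound for 2, 4, 8, 16 and 24 h, which makes 40 groups of 3 wells. Whether the 3 wells were grown as independent cultures is not in the labels; p-values measure the spread between wells, and in bulk RNA fewer cells and less RNA per cell cannot be told apart.

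Libraries held 12869311 to 56504690 estimated counts, with a median of 22323606. Untreated group means of EIF2AK3, which encodes PERK, were 793 to 1010 CPM (counts per 1000000 on TMM-scaled library sizes) in Dmr-PERK wells and 25.8 to 50.3 in Parental wells. Whether reads of the mouse PERK transgene were counted on this human gene in Dmr-PERK wells was not tested. Of the mesenchymal and osteoblast list, VIM (917 to 2695 TPM) and SPARC (484 to 1636 TPM) were high in every library. Medians of COL1A1 and FN1 were 406 and 306.5 TPM. The rest of that list was low, with medians of 13.2 TPM for RUNX2, 9.5 for ALPL, 1.28 for BGLAP and 0.28 for COL1A2. KRT18 of the epithelial list was at 278 to 866 TPM. Medians of EPCAM, CLDN4, CDH1 and ESRP1 were 3.7, 3.3, 3.2 and 0.60 TPM. The medians of KRT19 and of the blood genes CD3E, HBB and LYZ were at the lowest value in the tables, 0.063 TPM. Medians of the other blood genes on the list were at most 0.45 TPM, and not all were at that lowest value. All 3 Parental arsenite 24 h libraries stood apart from the rest by correlation within their group, replicate 3 most (highest Pearson r 0.987 with a library of its group), and the main counts that rest on them are also given without replicate 3. Replicates 1 and 2, at 0.99720, lay only just under the limit of 0.99722.

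The sequence around the annotated start of a gene shows whether a run like a TOP tract stands at that position. An annotated start is not a mapped cap site, so a gene without the run there may still give a TOP mRNA. Below, 10 bases before and 20 bases from the RefSeq start are printed 5′ to 3′ on the gene's strand (GRCh38.p14), in lower case, with a C and the C or T bases that follow it in capitals where such a run of at least 5 begins exactly at the annotated start. The start used for RPL26L1 lies inside the span of the gene, which begins at position 172954094, and the others printed are where the gene's span begins on its strand. The first 4 belong to members that were higher at 24 h of dimerizer, RPL7A and RPS26 stayed low, and the rest are paralogs set beside their partners.
RPL12, chr9:127451387-127451416, minus strand: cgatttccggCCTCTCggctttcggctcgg
RPS18, chr6:33272065-33272094, plus strand: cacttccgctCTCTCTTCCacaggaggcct
RPLP0, chr12:120201092-120201121, minus strand: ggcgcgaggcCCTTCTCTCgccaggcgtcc
RPS6, chr9:19380217-19380246, minus strand: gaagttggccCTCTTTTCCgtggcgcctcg
RPL7A, chr9:133348208-133348237, plus strand: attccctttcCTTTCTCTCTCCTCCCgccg
RPS26, chr12:56041908-56041937, plus strand: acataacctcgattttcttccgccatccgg
RPL22, chr1:6199576-6199605, minus strand: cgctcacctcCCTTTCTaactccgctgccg
RPL22L1, chr3:170870176-170870205, minus strand: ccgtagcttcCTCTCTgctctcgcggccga
RPS27, chr1:153990752-153990781, plus strand: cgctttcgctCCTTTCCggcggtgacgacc
RPS27L, chr15:63157458-63157487, minus strand: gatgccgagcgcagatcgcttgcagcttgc
RPL26, chr17:8383174-8383203, minus strand: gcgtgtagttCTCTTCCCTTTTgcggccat
RPL26L1, chr5:172958719-172958748, plus strand: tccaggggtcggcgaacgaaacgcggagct

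A RefSeq start window was matched by symbol for 68 of the 84 members. A C followed by at least 4 bases of C or T stood at the annotated start in 44 of the 68 (64.7%), against 4.04% of all 27305 windows in the table. Within 20 bases of the start it was found in 61 of 68 members (89.7%) and in 50.8% of all windows, and on the other strand in 36.8% of members and 51.0% of all windows. The paralog RPL22L1 holds the run at its start as its partner RPL22 does, whereas RPS27L and RPL26L1 do not hold it there and RPS27 and RPL26 do. Of the motifs searched on both strands over the 300 bases from 250 before to 50 after the start, CCGGAAG, the core of an ETS factor site, was in 33.8% of members and 10.7% of all windows, AAGATGG in 14.7% and 6.06%, GGGCGG in 54.4% and 44.6%, TATAAA in 10.3% and 11.95%, and TGATGNAA, a composite site bound by ATF4 and C/EBP, in 2.94% and 3.67%. These are matches of letters in a window around an annotated start and not mapped sites.

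Per length, the members differed widely in level. RPL41, which encodes the shortest ribosomal protein, was highest with a mean of 4316 TPM over all libraries, the median member was at 1260 TPM, and 79 of the 84 members lay at 400 TPM or more. The other 5 were the paralogs RPL10L, RPL39L, RPL7L1, RPL26L1 and RPL22L1. RPS27L, the sixth paralog, stood at 452 TPM. Reads of a few members may be split with near-identical copies: the pseudogene rows named after RPL9 held 268% of the counts of RPL9 itself, those of RPL23A 89.4%, those of RPS28 21.7% and those of RPS2 11.5%, and the median over members was 0.081%. Values of RPL9 and RPL23A, and of RPL10L beside RPL10, are uncertain for that reason.

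Together the 84 members held 9.85 to 16.9% of all TPM in a library, with a median of 12.1%. Among untreated Dmr-PERK wells the share was 12.1% ± 0.04 (SD, n = 3) at 0 h, 12.01% ± 0.25 at 4 h and 12.7% ± 0.11 at 24 h. Under dimerizer it was 10.9% ± 0.03 at 4 h and 15.4% ± 0.38 at 24 h. At 4 h all 3 dimerizer wells lay below, and at 24 h all 3 lay above, the 3 untreated wells of the same time. Thapsigargin gave 10.3% ± 0.10 at 4 h and 14.4% ± 0.10 at 24 h in Dmr-PERK cells, and 11.2% and 13.3% in Parental cells, where untreated wells held 12.5% and 12.95%. Arsenite in Dmr-PERK cells stayed below the untreated share at each time, with 10.5% at 4 h, 9.99% at 16 h and 11.0% ± 0.16 at 24 h. In Parental cells arsenite gave 11.0% at 16 h, then at most 12.1% in 2 of the libraries at 24 h and 16.9% in the library labelled 3. No test was run on the share, since it sums genes chosen with results known.

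**Figure D1:**
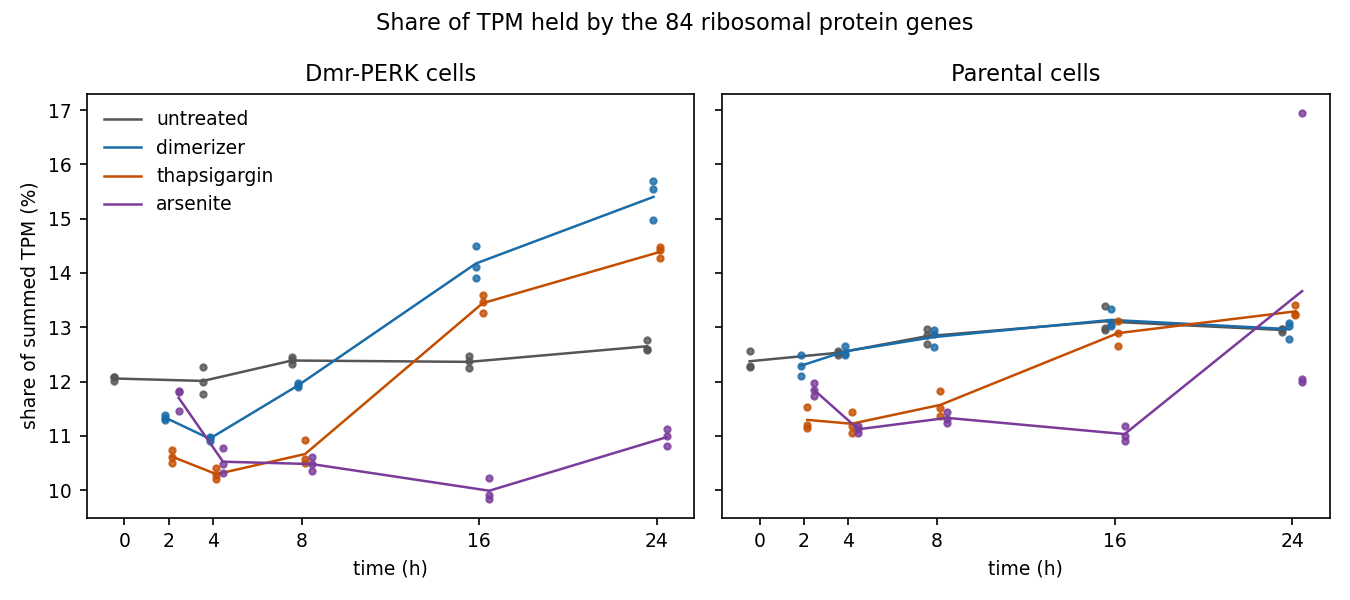
Share of summed TPM (%) held by the 84 ribosomal protein genes against time (h) in Dmr-PERK (left) and Parental cells (right). Points are libraries and lines join group means; in Dmr-PERK cells the dimerizer wells go from 10.9% at 4 h to 15.4% at 24 h, and 1 Parental arsenite library lies at 16.9% at 24 h.

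Dimerizer in Dmr-PERK cells lowered most ribosomal protein mRNAs by a small amount within 4 h and raised most of them by 24 h. Against untreated wells of the same time, 74 of 84 members were lower and 1 was higher at 4 h, with a median log2 fold change of -0.24, while 14.6% of all 26998 genes tested were called lower and 15.5% higher. With limma on log2(TPM + 1) 43 members were lower and 2 higher at this time. At 8 h, 29 members were lower and 5 higher (17.1% and 19.9% of all genes). At 16 h the members had crossed over, with 62 higher and 3 lower (22.5% and 20.6% of all genes) and a median of 0.25. At 24 h, 76 were higher and 3 lower (25% and 23.1% of all genes), with a median of 0.37 where that of all genes was -0.01. By size, 53 of the 76 were higher by at least 0.32 on the log2 scale, against 18.1% of all genes. Calls are at an adjusted p under 0.05 (edgeR quasi-likelihood test, Benjamini-Hochberg over all genes tested).

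The change came early: at 2 h, compared with untreated wells at 0 h because no untreated wells were taken at 2 h, 49 members were already lower and 0 higher (9.12% and 8.53% of all genes; at an unadjusted p under 0.05 the edgeR count of higher members was also 0). Library totals as the scaling gave 31 lower members at 2 h, and limma on log2(TPM + 1) gave 19. Of the 74 members lower at 4 h, 66 were higher at 24 h. The share of all genes with both calls was not computed. Singly, 14.6% of all genes were lower at 4 h and 25% higher at 24 h. Whether the effect changed between 4 and 24 h was tested for each gene in 1 F-test, and 82 of 84 members passed it, against 11353 of all 26998 genes (42.1%). The mean over 4 to 24 h, in which early and late effects offset each other, had 44 members higher and 13 lower (27.5% and 27.7% of all genes) and a median of 0.08.

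**Figure D2:**
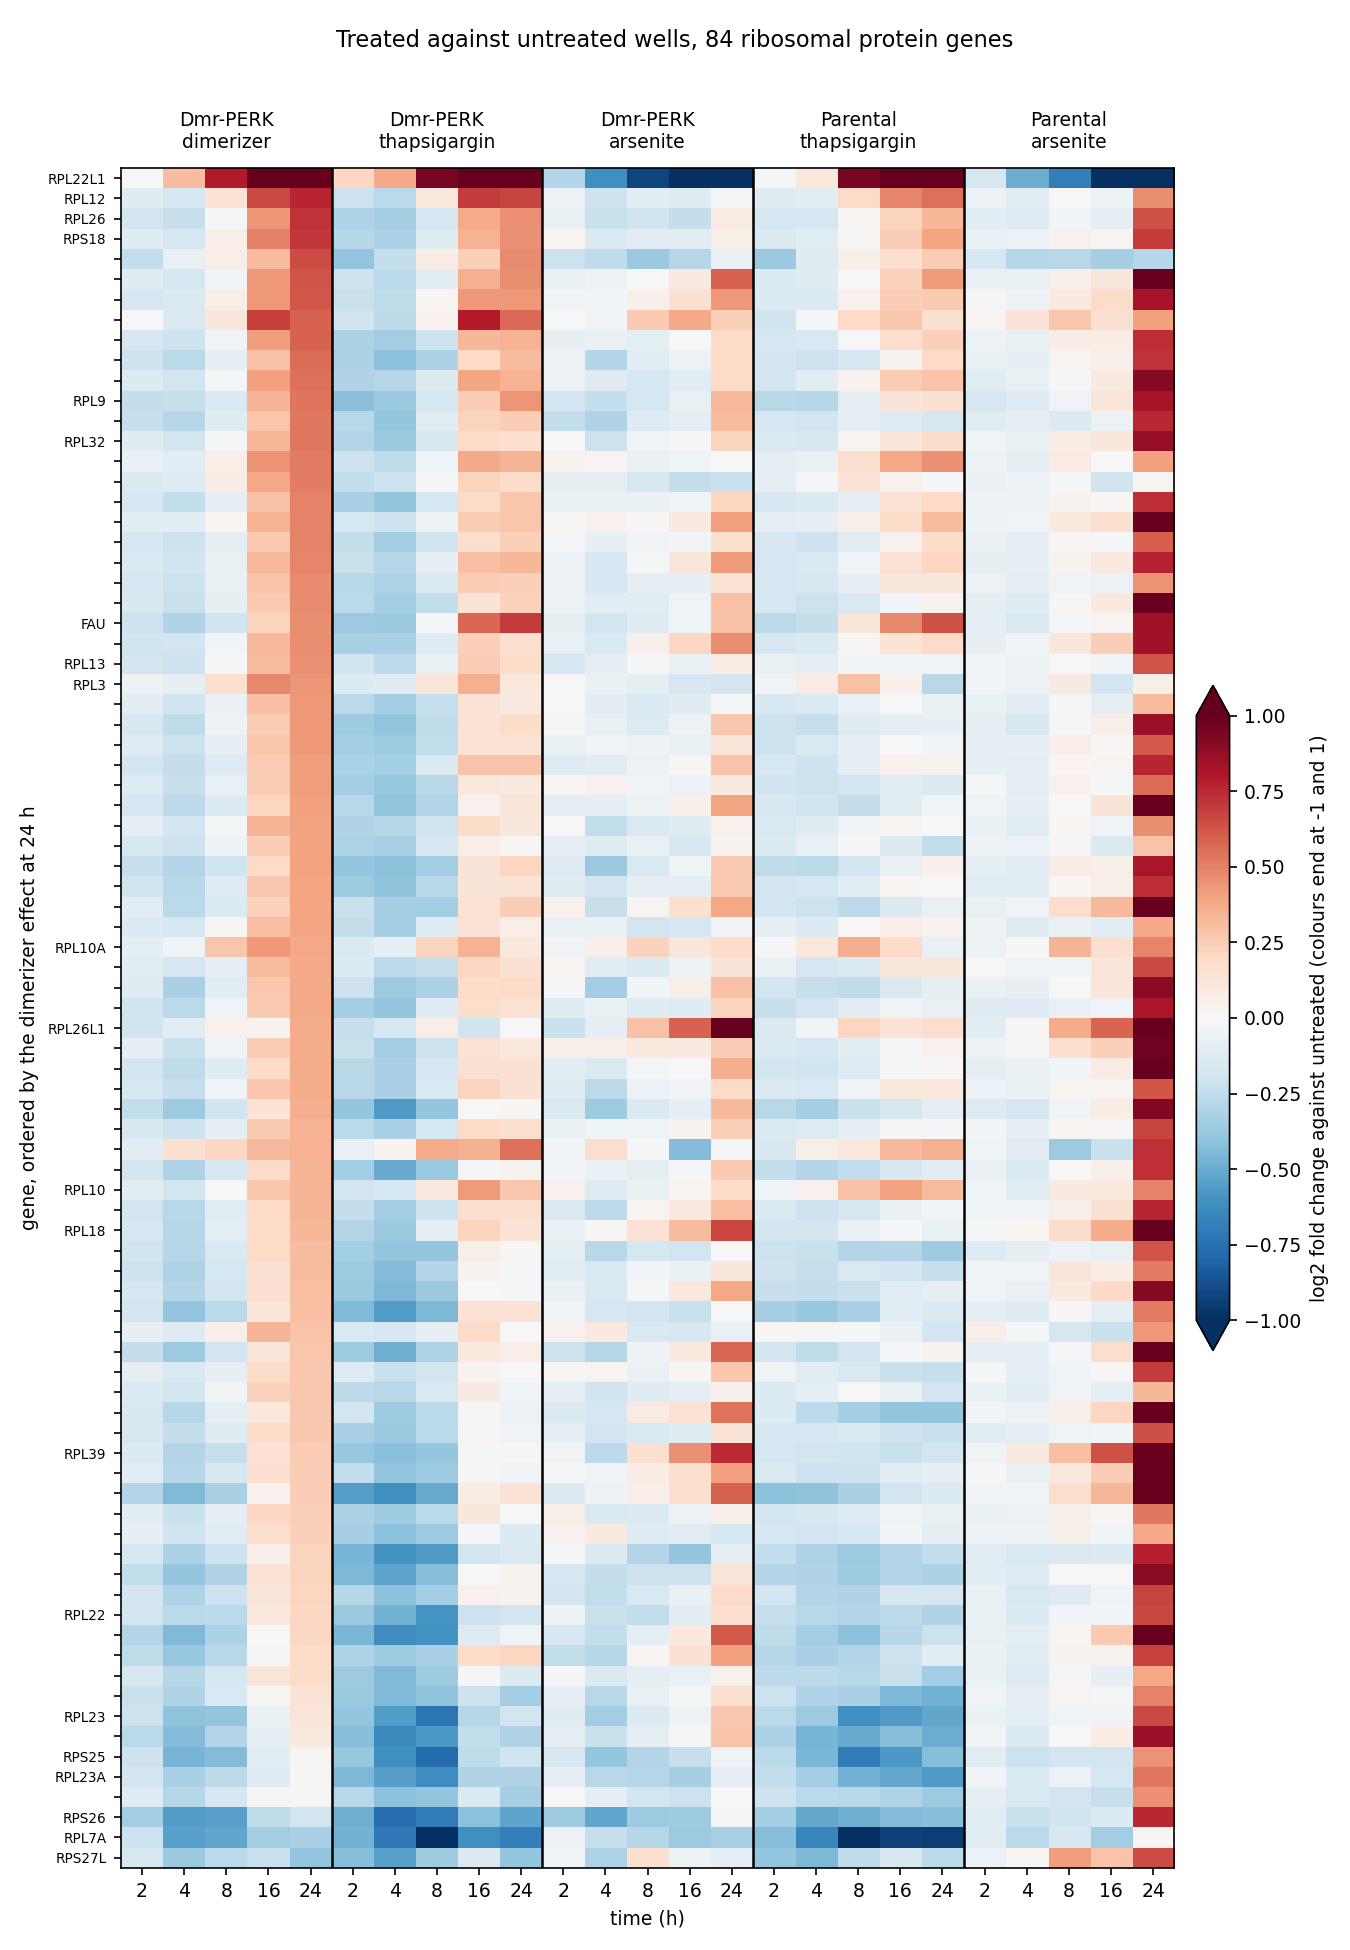
Log2 fold change against untreated wells for each of the 84 genes (rows, ordered by the dimerizer effect at 24 h, with symbols beside some of the genes described in the text) at 2, 4, 8, 16 and 24 h of each treatment (columns); colours end at -1 and 1. In Dmr-PERK cells under dimerizer 74 genes were called lower at 4 h and 76 higher at 24 h, and the top row, RPL22L1, is higher under dimerizer and thapsigargin and lower under arsenite.

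Both subunits followed this course. At 24 h of dimerizer 47 of 51 large subunit members were higher and 1 lower, and 29 of 33 small subunit members were higher and 2 lower; their medians were 0.37 and 0.38. At 4 h, 41 of 51 and 33 of 33 were lower. Of the members with a TOP-like run at the annotated start and of those without it, 41 of 44 and 21 of 24 were higher at 24 h, with medians of 0.37 and 0.38, and 40 of 44 and 19 of 24 were lower at 4 h. These counts are a description of members that share wells and were not tested against each other. The split used the exact annotated start, whereas 61 of 68 members hold such a run within 20 bases of it.

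RPL12, a protein at the base of the ribosomal stalk, had the highest fold change at 24 h after RPL22L1. Its values were 501, 496 and 491 CPM in untreated Dmr-PERK wells at 24 h and 804, 863 and 861 under dimerizer. The 3 treated wells lay far above the 3 untreated ones, a 1.70-fold rise (log2 0.76 ± 0.04 SE, adjusted p 6.98e-34). At 4 h it had been lower, by -0.17 ± 0.04 (adjusted p 0.000156; 0.0503 without replicate 2 and 0.205 with limma on log2(TPM + 1)), and at 8 h it was already higher, by 0.15 ± 0.04 (adjusted p 0.000846), which set it ahead of most members.

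RPS18, a protein of the head of the small subunit, gave 487, 485 and 484 CPM in untreated Dmr-PERK wells at 24 h and 745, 817 and 817 CPM under dimerizer. The groups did not overlap and the log2 difference was 0.71 ± 0.06 (adjusted p 4.08e-20). RPL26, a large subunit protein also known for binding p53 mRNA, went from 365, 355 and 365 CPM to 562, 608 and 616 CPM, a log2 difference of 0.72 ± 0.05. RPL7L1 (0.66 ± 0.03), RPS12 (0.63 ± 0.07), RPL8 (0.62 ± 0.05), RPL39L (0.59 ± 0.07) and RPS6 (0.59 ± 0.06), the S6 kinase substrate, followed at 24 h.

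The acidic stalk, which recruits translation factors, rose together at 24 h, RPLP0 by 0.52, RPLP1 by 0.50 and RPLP2 by 0.41 on the log2 scale, although only 1 of these 3 had been called lower at 4 h. The 2 members made as fusions to a ubiquitin-like or ubiquitin domain rose too, FAU by 0.47 ± 0.07 and RPS27A by 0.50. RPL5 (0.40) and RPL11 (0.30), which with 5S ribosomal RNA bind MDM2, rose in the middle of the range. RPL3 and RPL10A, proteins of the large subunit, moved early: at 8 h they were higher by 0.16 ± 0.04 and 0.28 ± 0.05 when the median member was at -0.10. At 24 h, 5 members were not called in either direction: RPL41 (0.01, adjusted p 0.948), RPL23A (0.02), RPS25 (0.03), RPS15 (0.10) and RPL23 (0.12, adjusted p 0.0681).

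RPL7A, RPS26 and RPS27L were lower at 4, 8, 16 and 24 h of dimerizer and did not cross over with the rest. RPL7A, a large subunit protein of the kink-turn binding family, gave 978, 1021 and 984 CPM in untreated Dmr-PERK wells at 4 h and 696, 679 and 677 CPM with dimerizer. The wells did not overlap, with a log2 difference of -0.54 ± 0.05 (adjusted p 3.8e-16), and at 24 h RPL7A was still lower by -0.32 ± 0.05 (adjusted p 3.32e-08). RPS26, which lines the mRNA exit channel, gave 205, 208 and 205 CPM in untreated wells at 4 h and 145, 137 and 138 CPM with dimerizer. Its difference of -0.56 ± 0.06 at 4 h narrowed to -0.18 ± 0.06 (adjusted p 0.0115) at 24 h.

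RPS27L, a paralog of RPS27 known as a p53 target gene, was lower by -0.37 ± 0.05 at 4 h and by -0.40 ± 0.05 at 24 h (adjusted p 2.31e-12). Its partner RPS27 was higher at 24 h, by 0.40. The ratio of RPS27L to RPS27 in TPM, a comparison per length, was 21.4% ± 0.5 (SD, n = 3) in untreated Dmr-PERK wells at 24 h and 12.4% ± 0.3 with dimerizer. Nearby in the order, RPS25 was at -0.46 at 4 h and -0.43 at 8 h, and RPL23 at -0.40 at both times, and neither passed the test at 24 h.

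**Figure D3:**
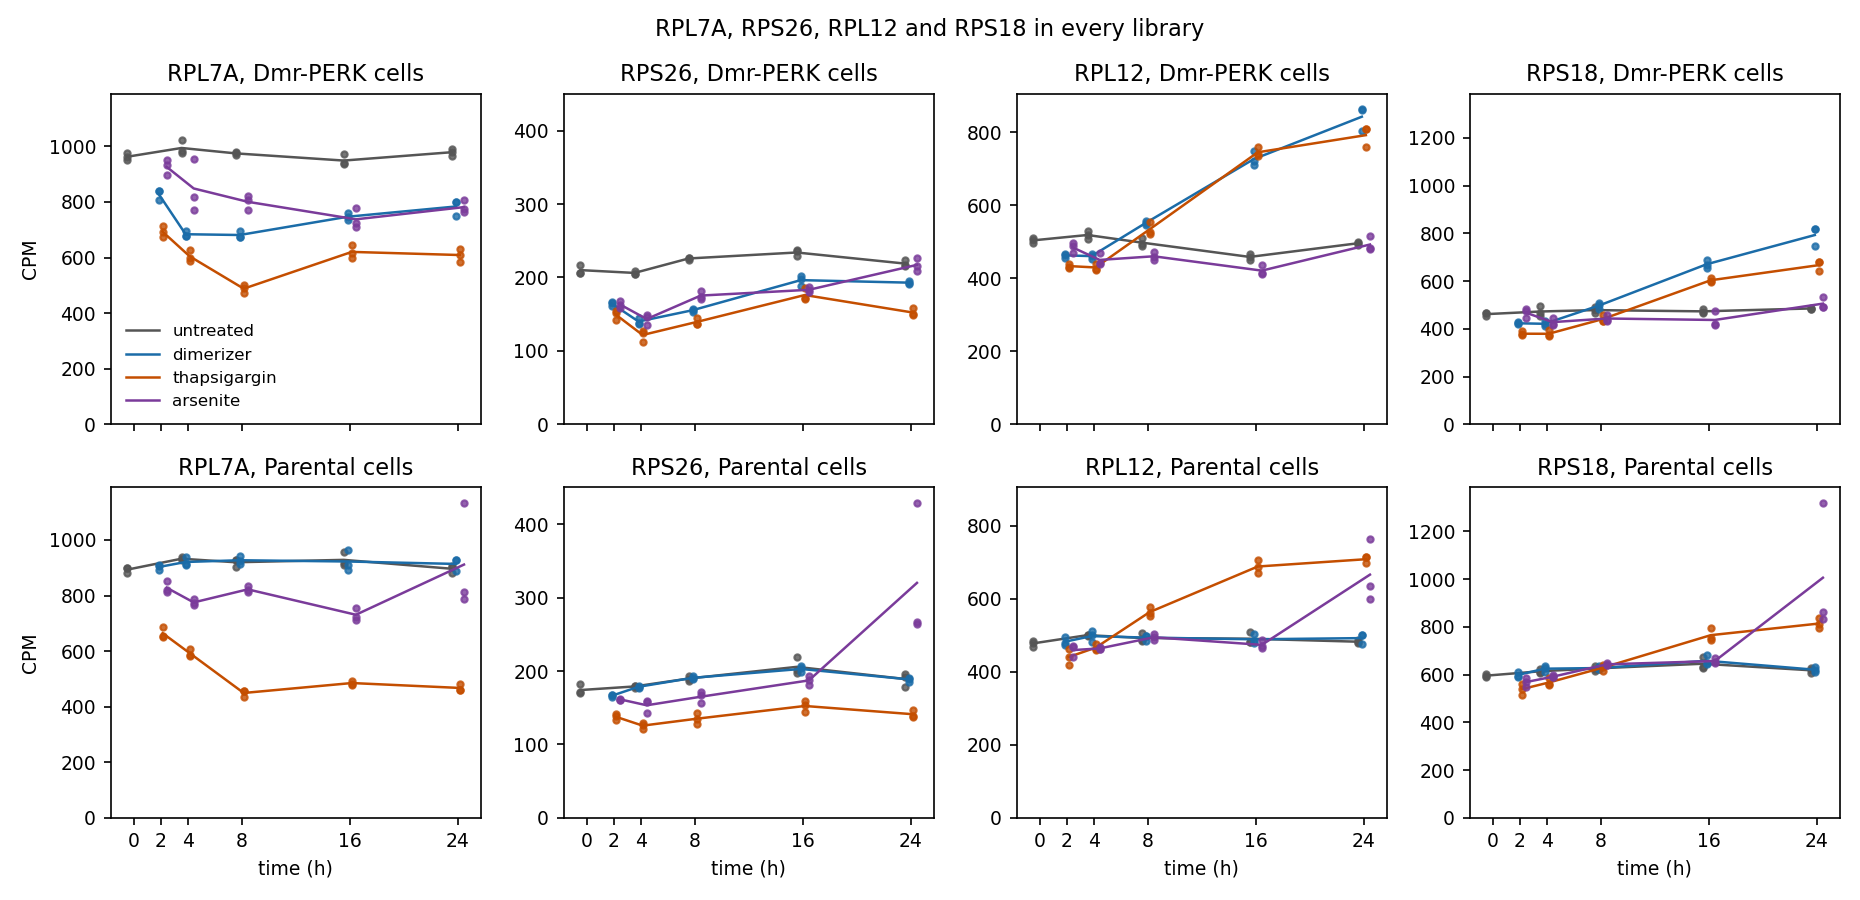
CPM of RPL7A, RPS26, RPL12 and RPS18 (columns, each with its own axis from 0) against time (h) in Dmr-PERK (top) and Parental cells (bottom); points are libraries and lines join group means. In Dmr-PERK cells the group means of RPL7A and RPS26 stay below untreated wells under dimerizer and thapsigargin from 4 h on, whereas those of RPL12 and RPS18 lie above them at 16 and 24 h.

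RPL22L1 had by far the widest range of any member. It is a paralog of RPL22, an RNA-binding protein of the large subunit that is not needed for translation in general, on chromosome 3 (chr3:170864875-170870195 in RefSeq, GRCh38.p14, minus strand). In untreated Dmr-PERK wells at 24 h RPL22L1 gave 33.7, 31.6 and 33.0 CPM. Dimerizer gave 123, 130 and 128 CPM, a 3.87-fold rise (log2 1.95 ± 0.06, adjusted p 5.6e-51), and the groups lay far apart. The rise was graded in time, from 0.00 ± 0.07 at 2 h through 0.31 ± 0.06 at 4 h (adjusted p 4.16e-05), 0.80 ± 0.06 at 8 h and 1.74 ± 0.06 at 16 h.

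Thapsigargin raised RPL22L1 to 129, 124 and 120 CPM at 24 h in Dmr-PERK cells, nearly the dimerizer level, with a log2 difference of 1.92 ± 0.06 (adjusted p 7.83e-51). In Parental cells untreated wells gave 34.6, 35.2 and 37.0 CPM at 24 h and thapsigargin wells 71.4, 79.5 and 75.1 CPM, a smaller rise of 1.09 ± 0.06 (adjusted p 1.22e-31). Arsenite did the reverse in both lines: Dmr-PERK wells fell to 8.34, 9.10 and 7.95 CPM at 24 h (log2 -1.97 ± 0.09, adjusted p 3.44e-39). Parental wells gave 7.18, 7.44 and 13.6 CPM at 24 h, the last being the library that stood apart most, and at 16 h, where no library stood apart, RPL22L1 was lower by -2.57 ± 0.08 (adjusted p 6.91e-50). These directions held under each scaling of the libraries that was tried.

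RPL22 itself was lower at 4, 8, 16 and 24 h of thapsigargin in both lines. In Dmr-PERK cells at 8 h it went from 226, 217 and 217 CPM to 143, 155 and 140 CPM (log2 -0.59 ± 0.06, adjusted p 1.42e-16), and in Parental cells the difference at 8 h was -0.29 ± 0.06 (adjusted p 5.22e-06). At 24 h RPL22 was at 214, 213 and 216 CPM in untreated Dmr-PERK wells at 24 h, at 241, 250 and 252 with dimerizer (log2 0.21 ± 0.06, adjusted p 0.000982) and at 197, 184 and 187 with thapsigargin (-0.18 ± 0.06, adjusted p 0.00402). Both calls of RPL22 were lost under some settings, with dimerizer in limma on log2(TPM + 1) (0.07, adjusted p 0.304), and with thapsigargin under library totals (-0.10, adjusted p 0.105) and without replicate 2 (-0.17, adjusted p 0.0648). In TPM, RPL22L1 stood at 23.1% ± 0.8 of RPL22 in untreated Dmr-PERK wells at 24 h, at 80.4% ± 0.6 with dimerizer, at 99.6% ± 3.3 with thapsigargin and at 5.14% ± 0.3 with arsenite. At 16 h of thapsigargin the ratio reached 129% ± 0.9 in Dmr-PERK and 99.7% ± 1.1 in Parental cells. Per length, the mRNA of the paralog was thus at or near the level of its partner or above it in those wells.

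**Figure D4:**
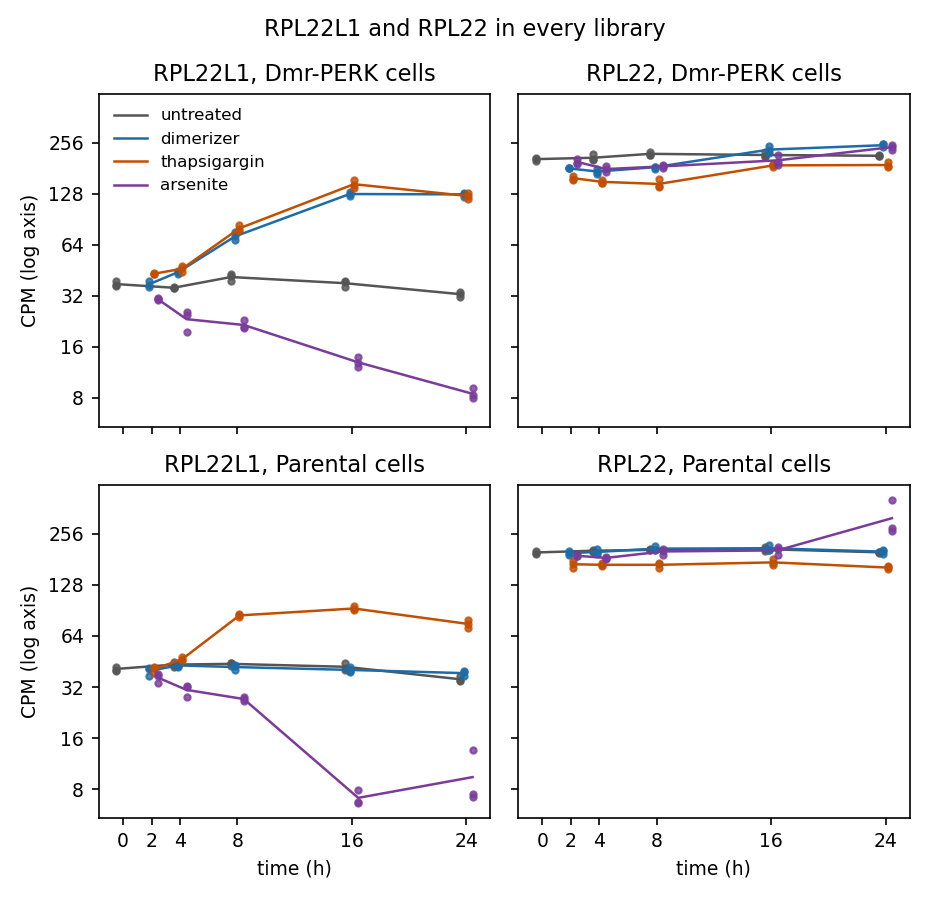
CPM of RPL22L1 (left) and RPL22 (right) on a shared log axis against time (h), in Dmr-PERK (top) and Parental cells (bottom); points are libraries and lines join group means. RPL22L1 parts by treatment, from about 33 CPM in untreated Dmr-PERK wells at 24 h to 123 to 130 with dimerizer and 7.95 to 9.10 with arsenite, while RPL22 lies below untreated wells under thapsigargin in both lines.

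The other paralogs had courses of their own. RPL39L, which is best known from testis, rose with dimerizer by 0.69 at 16 h and 0.59 ± 0.07 at 24 h, and RPL39 by 0.26 at 24 h. RPL7L1 rose by 0.66 ± 0.03 at 24 h, where RPL7 rose by 0.18. RPL10L, a copy of RPL10 without introns, was higher by 0.35 at 24 h, as was RPL10 by 0.34. RPL26L1 was higher by 0.37 ± 0.06 at 24 h of dimerizer, where RPL26 rose by 0.72, and did not pass the test at 4, 8 or 16 h.

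In Parental cells, which lack the DmrB fusion, dimerizer changed 0 of 84 members in the mean over 4 to 24 h and 0 at each of the 5 times (edgeR quasi-likelihood test; 0.256% of all genes were called lower and 0.326% higher in the mean). By time, 0.133% of all genes were lower and 0.0444% higher at 2 h, 3.73% and 3.78% at 4 h, and 0% in either direction at 8, 16 and 24 h. At an unadjusted p under 0.05 the counts were 0 in the mean and 0 at 2, 4, 8 and 16 h, and at 24 h they were 2, RPL7L1 and RPL22L1, which were named after their values were seen. The spread in these tests was taken over all 120 libraries, the Parental arsenite 24 h libraries included. A small effect could therefore be missed. RPL22L1 was at 39.0, 39.7 and 37.2 CPM in dimerizer wells at 24 h beside 34.6, 35.2 and 37.0 CPM untreated, and RPL12 at 476, 500 and 501 beside 483, 487 and 478 CPM.

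An interaction term for line and dimerizer over 4 to 24 h was called for 45 members, 34 higher in Dmr-PERK cells and 11 lower (23.7% and 23.2% of all genes). RPL22L1 had the highest difference, 1.21 ± 0.04 (adjusted p 3.45e-45), and RPL12 followed with 0.35 ± 0.03. RPL7A (-0.43 ± 0.04, adjusted p 6.87e-20), RPS26 (-0.38 ± 0.04), RPS27L (-0.33 ± 0.03) and RPS25 (-0.26 ± 0.04) were lowest.

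Thapsigargin in Dmr-PERK cells lowered most members at 2, 4 and 8 h. At 2 h, against untreated wells at 0 h, 80 were lower and 1 higher (15% and 18.2% of all genes), with a median of -0.30. At 4 h, 81 of 84 were lower and 1, RPL22L1, was higher (19.9% and 19.7% of all genes), with a median of -0.36, and 60 were lower by at least 0.32 on the log2 scale, against 12.5% of all genes. At 8 h, 62 were lower and 7 higher (23.7% and 25.6% of all genes), at 16 h 11 lower and 44 higher (26.2% and 25.3%), and at 24 h 11 lower and 43 higher (27.5% and 27.5%), with a median of 0.14. In the mean over 4 to 24 h 17 were higher and 46 lower (30.9% and 32.2% of all genes). All 84 members passed the F-test for a change of the effect between 4 and 24 h, where 14097 of 26998 genes did (52.2%).

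In Parental cells 60 members were lower and 0 higher at 2 h of thapsigargin, against untreated wells at 0 h (12.6% and 16.6% of all genes). At 8 h 39 were lower and 9 higher (25.3% and 24.4%). Most members were lower at 4 h too. At that time, 62 members were lower and 0 higher (19.7% and 20.9% of all genes), at 16 h 28 lower and 21 higher (29.5% and 26.7%), and at 24 h 28 lower and 23 higher (27.9% and 26.8%; 23 and 26 with library totals), with a median of -0.07. In the mean over 4 to 24 h 18 were higher and 48 lower (30.1% and 35% of all genes). The F-test for change with time was passed by 37 members (49.9% of all genes), and by 61 without the Parental arsenite 24 h library labelled 3, which enters the shared spread. The difference between lines in the mean thapsigargin effect was called for 12 members, 7 above and 5 below in the Dmr-PERK line (11.3% and 14.4% of all genes; 17 and 3 with library totals as the scaling). RPL22L1 was higher by 0.47 ± 0.04 (adjusted p 1.64e-17). The count was 5 without replicate 1 or without replicate 2 and 27 without replicate 3, and limma on log2(TPM + 1) called 29 members higher and 2 lower.

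RPL7A fell the most under thapsigargin in both lines. Untreated Dmr-PERK wells gave 981, 968 and 976 CPM at 8 h and thapsigargin wells 471, 502 and 491 CPM, a log2 difference of -1.0 ± 0.05 (adjusted p 2.3e-33). Parental wells gave 929, 927 and 903 CPM untreated and 457, 458 and 433 CPM treated at 8 h, a difference of -1.03 ± 0.05 (adjusted p 3.6e-34), and RPL7A was still at -0.94 ± 0.05 there at 24 h. In neither line did a treated well reach an untreated one.

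Lower at 4, 8, 16 and 24 h of thapsigargin in Dmr-PERK cells were 9 members: RPL7A, RPS26, RPS27L, RPS25, RPS15, RPL22, RPL23, RPL23A and RPL29. In Parental cells 20 members were, and these 9 were among them. The share of all genes that were lower at all of these times was not computed, so both counts are a description. At the single times 19.9 to 27.5% of all genes were lower in Dmr-PERK cells and 19.7 to 29.5% in Parental cells. RPS25, a small subunit protein needed for initiation at some internal ribosome entry sites, gave 346, 338 and 331 CPM untreated and 190, 207 and 198 CPM with thapsigargin at 8 h in Dmr-PERK cells, a difference of -0.77. In Parental cells RPS25 was lower by -0.70 at 8 h. RPL23, a partner of MDM2 in its free form, was lower by -0.73 and -0.61 at 8 h in the 2 lines, and RPL23A, at the exit of the peptide tunnel, by -0.62 and -0.47, with the limit on its counting given above.

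FAU had the highest fold change after RPL22L1 at 24 h of thapsigargin in both lines. It gave 220, 216 and 220 CPM in untreated Dmr-PERK wells at 24 h and 361, 365 and 338 CPM with thapsigargin, a difference of 0.70 ± 0.07 (adjusted p 1.84e-16), after -0.37 ± 0.07 at 4 h. In Parental cells FAU was higher by 0.64 ± 0.07 (adjusted p 1.48e-14) at 24 h. RPL12 was higher at 24 h by 0.68 ± 0.04 in Dmr-PERK and 0.55 ± 0.04 in Parental cells, and RPS18 by 0.46 ± 0.06 and 0.40 ± 0.06. RPL3, RPL10 and RPL10A were above untreated wells at 8 h in both lines, in Parental cells by 0.29, 0.29 and 0.36.

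Dimerizer and thapsigargin were compared directly in Dmr-PERK cells over 2 to 24 h, with no untreated wells in the contrast. Of the members, 78 were higher with dimerizer and 2 lower (26.2% and 20.9% of all genes), by a median of 0.15. RPS29 (0.31 ± 0.04), RPL7A (0.31 ± 0.02), RPL22 (0.28 ± 0.03) and RPL23A (0.27 ± 0.03) were highest. The 2 that were lower with dimerizer were RPL22L1 (-0.12 ± 0.02, adjusted p 2.8e-05) and FAU (-0.11 ± 0.03, adjusted p 0.00117).

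Under arsenite the direction of the members depended on how libraries were scaled. In this comparison 44.4% of all genes were called higher and 39.2% lower in the mean over 4 to 24 h in Dmr-PERK cells. With TMM, 20 members were higher and 34 lower, with RLE 48 and 8, and with library totals 3 and 74, as the median of all genes moved from 0.12 to 0.22 and to -0.08. Set against the median of all genes, the members' median was -0.15, -0.14 and -0.14 in the same order. By time, this relative value with TMM was -0.17 at 4 h, -0.22 at 8 h, -0.18 at 16 h and 0.08 at 24 h. RLE gave -0.17, -0.21, -0.18 and 0.09 at these times, and library totals gave -0.19, -0.23, -0.19 and 0.08. On the deposited TPM, with limma on log2(TPM + 1), 1 member was higher and 79 lower in the mean.

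The counts by time carry the same limit. In Dmr-PERK cells arsenite gave 12 lower and 0 higher members at 2 h (9.46% and 10.5% of all genes) and 49 lower and 0 higher at 4 h (24.7% and 24.4%; 47 and 1 with RLE, 69 and 0 with library totals). At 8 h there were 31 lower and 5 higher (31.2% and 36.2%; 14 and 8 with RLE, 67 and 2 with library totals), and at 16 h 23 lower and 12 higher (36.3% and 42.5%; 8 and 38 with RLE, 73 and 2 with library totals). At 24 h there were 6 lower and 53 higher (38.2% and 43.3%; 1 and 78 with RLE, 39 and 15 with library totals, 62 and 7 with limma on log2(TPM + 1)). Without the Parental arsenite 24 h library labelled 3, which is in none of these contrasts but enters the shared estimate of the spread, 28 members were lower at 2 h and 54 were called at 16 h.

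Some members rose by more than the shift between scalings at 24 h of arsenite. RPL26L1 gave 37.1, 33.7 and 36.0 CPM in untreated Dmr-PERK wells and 77.7, 76.5 and 82.7 CPM with arsenite, a 2.22-fold rise (log2 1.15 ± 0.06, adjusted p 4.69e-33). RPL39, a short protein of the exit tunnel, went from 141, 140 and 152 CPM to 231, 235 and 255 CPM, a difference of 0.74 ± 0.07 (adjusted p 1.18e-16). RPL18 (0.67 ± 0.06), RPL38 (0.61), RPL24 (0.59) and RPS12 (0.59) followed. Treated wells of RPL26L1 and RPL39 lay above all untreated wells of that time. With limma on log2(TPM + 1) the differences of RPL26L1, RPL39 and RPL18 were 0.80, 0.34 and 0.25.

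With TMM, where 53 members were higher at 24 h, some members were lower. With library totals 39 were lower and 15 higher at that time, and with limma on log2(TPM + 1) most were lower, so these members are exceptions only under some settings. RPL22L1, RPL7A (-0.32 ± 0.05, adjusted p 1.04e-08) and RPL4 (-0.23) were lower at 4, 8, 16 and 24 h of arsenite in Dmr-PERK cells. RPL3 (-0.18) and RPSA (-0.18), a small subunit protein also described as a laminin receptor, were lower at 24 h. With RLE as the scaling RPL22L1 was the 1 member lower at 24 h, and the calls of RPL7A, RPL4, RPL3 and RPSA at that time were lost.

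In Parental cells the arsenite mean over 4 to 24 h had 68 members higher and 4 lower (42.7% and 39.4% of all genes; 81 and 3 with RLE, 19 and 34 with library totals, 4 and 62 with limma on log2(TPM + 1), 59 and 9 without the 24 h library labelled 3), and the members' median lay 0.07 above that of all genes with TMM, RLE and library totals alike. This relative value was positive only at 24 h, where the library labelled 3 stood far apart and the others only just. At 4, 8 and 16 h it was -0.09, -0.03 and -0.07 with TMM and with RLE. Library totals gave -0.11, -0.05 and -0.08. By time there were 21 lower and 0 higher members at 4 h (25.1% and 24.1% of all genes; 7 and 0 with RLE, 74 and 0 with library totals, 44 and 0 without the 24 h library labelled 3), 8 lower and 12 higher at 8 h (29.6% and 30.6%; 47 and 3 with library totals, 5 and 20 with RLE) and 12 lower and 22 higher at 16 h (37.2% and 41.6%; 52 and 6 with library totals, 3 and 58 with RLE). At 16 h RPL39 (0.64 ± 0.07), RPL26L1 (0.58 ± 0.06) and RPL18 (0.37 ± 0.06) were highest, the genes that led at 24 h in Dmr-PERK cells. At 24 h, 79 were higher and 2 lower (42.7% and 37.8% of all genes), with a median of 0.70, which lay 0.58 above that of all genes. Without the library labelled 3 the counts there were 79 and 5 with a median of 0.45, and with limma on log2(TPM + 1) they were 32 and 27 with a median of 0.07. In the 3 libraries of that group members held 4.87%, 4.90% and 7.49% of counts, beside 4.55 to 4.59% untreated, mitochondrial genes held 6.51%, 6.61% and 4.14% of counts, beside 5.71 to 5.79%, and ribosomal protein pseudogene rows 0.211%, 0.209% and 0.253%. In Dmr-PERK cells at 24 h mitochondrial genes held 3.89 to 3.98% with arsenite, beside 6.10 to 6.31% untreated, and at 4 h of arsenite 4.72%, 4.56% and 2.72%, beside 6.32 to 6.43%. The part of these differences in the arsenite results was not tested.

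The difference between lines in the mean arsenite effect was called for 76 members, 1 higher and 75 lower in the Dmr-PERK line (23.5% and 18.7% of all genes), with a median of -0.18. RPS27L (-0.42 ± 0.03), RPS26 (-0.36 ± 0.04), RPL39 (-0.36 ± 0.05) and RPL34 (-0.33 ± 0.05) were lowest and RPL22L1 (0.16 ± 0.06, adjusted p 0.0159) was highest. Without the Parental 24 h library labelled 3 it was called for 73 members, 2 higher and 71 lower, with a median of -0.12. With limma on log2(TPM + 1) 2 were higher and 48 lower. The call of RPL22L1 was lost without replicate 1 (0.05, adjusted p 0.678) and without replicate 2 (0.12, adjusted p 0.242).

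Against arsenite, dimerizer wells had 36 members higher and 14 lower over 2 to 24 h (37.8% and 42.6% of all genes; 71 and 5 with library totals, 13 and 47 with RLE). Thapsigargin wells had 12 higher and 55 lower (37.3% and 43.5%; 43 and 21 with library totals, 6 and 73 with RLE). RPL22L1 was higher by 2.03 ± 0.03 with dimerizer and 2.15 ± 0.03 with thapsigargin than with arsenite, and RPL12 by 0.36 and 0.30. RPL26L1, at -0.32 and -0.45, and RPL39, at -0.27 and -0.45, were lower than with arsenite.

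Other genes of the translation apparatus were read from lists chosen with earlier results of these data known, beside 25% of all genes higher and 23.1% lower at 24 h of dimerizer. At 4 h of dimerizer 15.5% of all genes were higher and 14.6% lower. At 24 h of dimerizer 21 of 22 translation factors of the TOP class were higher and 0 lower, with EIF3D (0.78 ± 0.03) and EIF3I (0.67 ± 0.04) having the smallest adjusted p, after 3 higher and 11 lower at 4 h. Of 10 ribosome-associated and other TOP products, 10 were lower at 4 h, and at 24 h 6 were higher and 3 lower. RACK1, a scaffold on the small subunit, rose by 0.59 ± 0.03, and VIM, the intermediate filament protein, was at -0.69 ± 0.03. Mitochondrial ribosomal proteins, which are made from nuclear genes for another ribosome, had 56 of 79 higher and 4 lower at 24 h with a median of 0.30.

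The next lists stand beside the same shares of all genes at 24 h of dimerizer, 25% higher and 23.1% lower. Chaperones and import factors of ribosomal proteins had 12 of 15 higher and 1 lower at 24 h of dimerizer, with PRMT3, which methylates RPS2, at 1.04 ± 0.05 and PDCD2 at 0.76 ± 0.05. Of 18 ribosome collision and quality control factors 16 were higher and 1 lower, GTPBP2, a GTPase of ribosome rescue, by 1.96 ± 0.06 and ZNF598, a ubiquitin ligase of collided ribosomes, by 1.32 ± 0.05. Among 18 proteins that bind TOP mRNA or belong to the mTORC1 pathway 14 were higher and 2 lower, with SESN2 at 2.12 and DDIT4 at 2.05. Of 10 genes of the p53 and MDM2 axis 1 was higher and 5 lower, TP53INP1 by -0.95 ± 0.07 and SESN1 by -0.69 ± 0.07. Of the 8 tested mesenchymal and osteoblast markers 1 was higher and 6 lower at that time, with SPARC at -1.23 ± 0.03, COL1A1 at -1.33 ± 0.06 and a median of -0.65, and their part in the result was not tested.

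With thapsigargin at 24 h the same lists gave 11 of 22 translation factors higher and 6 lower and 29 of 79 mitochondrial ribosomal proteins higher and 19 lower, beside 27.5% of all genes in each direction. With arsenite at 24 h mitochondrial ribosomal proteins had 18 higher and 50 lower, with a median of -0.42, and chaperones and import factors 4 higher and 10 lower, on a scale where the median of all genes was 0.11 and 43.3% of all genes were higher and 38.2% lower.

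Untreated wells changed little with time: against 0 h at most 16 members were called in Dmr-PERK cells, 11 higher and 5 lower at 16 h (17% and 18.3% of all genes), and at most 26 in Parental cells, 23 higher and 3 lower at 16 h (20.1% and 18.9% of all genes). At 24 h TMM gave 2 higher and 5 lower in the Dmr-PERK line (14.4% and 16.7% of all genes), and library totals gave 22 and 2.

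The 2 untreated lines differed in a subset of members. Over 0 to 24 h, 41 members were above the Parental level in the Dmr-PERK line and 19 below it (30.3% and 32.2% of all genes), and by at least 0.32 on the log2 scale 4 were higher and 12 lower (15.7% and 21.8%). RPL13 was lowest, at 448 to 525 CPM over the 15 untreated Dmr-PERK wells and 770 to 850 CPM over the 15 Parental wells, a log2 difference of -0.72 ± 0.03 (adjusted p 1.18e-40) with no overlap. RPL32 (-0.59), RPL18 (-0.57), RPS21 (-0.57), RPL15 (-0.56), RPL13A (-0.50), RPS16 (-0.49), RPS19 (-0.47), RPS10 (-0.43), RPL37A (-0.43) and RPS18 (-0.39) were also lower by that size. RPS27L, at 189 to 225 CPM in Dmr-PERK and 118 to 146 CPM in Parental wells, was highest (0.64 ± 0.02), ahead of RPL26L1 (0.54 ± 0.03), RPL9 (0.46 ± 0.03) and RPL39L (0.34 ± 0.03).

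Of these, RPS16, RPS19, RPL18 and RPL13A lie on chromosome 19 (RefSeq, GRCh38.p14), and RPL32 and RPL15 lie on chromosome 3. After these values were seen, the protein-coding genes within 1 Mb of each member, ribosomal protein genes left out, were read from the same comparison. Their median difference was -0.89 around RPL13, -0.83 around RPS21 and -0.54 around RPS19, and over the 12 members it ran from -0.89 to -0.25. Around the other 69 members with at least 5 such neighbours it ran from -0.41 to 0.47, with a median of 0.06, and over all 15576 such genes the median was 0.01. Of the 4 members higher by that size, RPS27L (0.64) had neighbours at 0.08, RPL26L1 (0.54) at 0.23, RPL9 (0.46) at 0.47 and RPL39L (0.34) at 0.19. Members close to each other share neighbours, and the pattern was not tested.

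**Figure D5:**
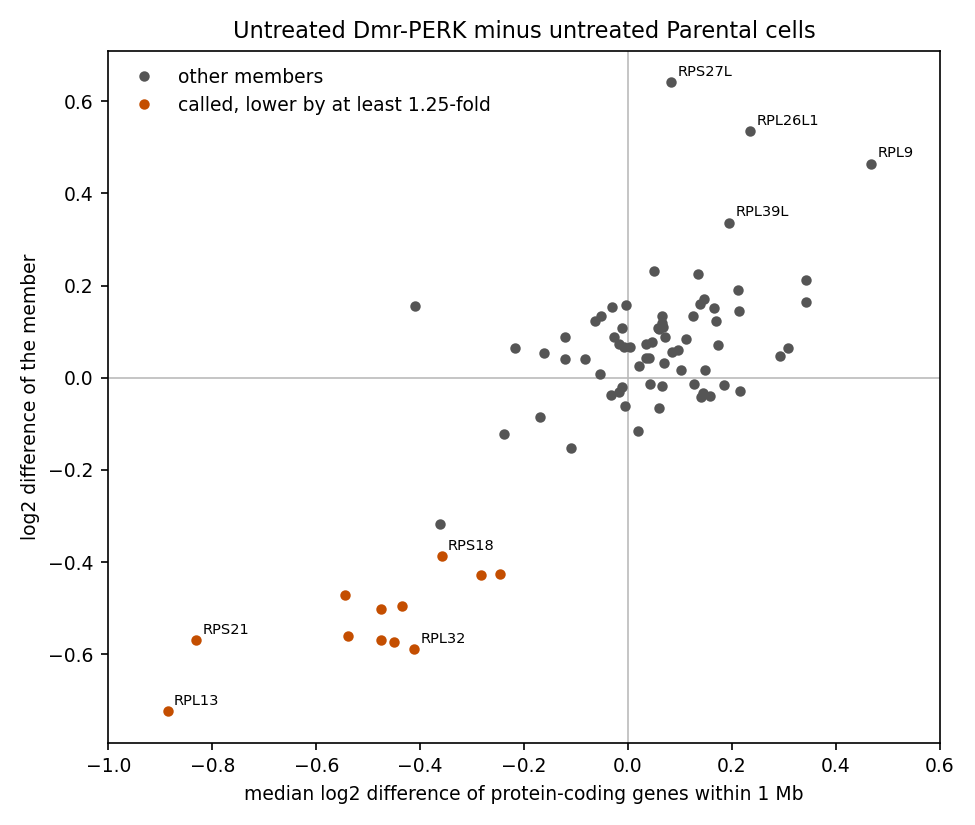
Log2 difference between untreated Dmr-PERK and untreated Parental cells for each member (vertical) against the median of the same difference over protein-coding genes within 1 Mb of it (horizontal); each point is 1 member. The 12 members lower by at least 0.32 (orange) lie where the neighbours' medians are -0.89 to -0.25, and RPS27L lies high with neighbours near 0.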

How the data were processed

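Per the labels, RNA of each of the 120 wells went into a directional sequencing library. Per the submitters' processing notes, FastQC 0.11.5, Salmon 0.9.1 and genome build GRCh38 were used; other settings, strand use in counting included, are not given in the sources used here. The authors deposited estimated counts and TPM per gene for every library, with 12869311 to 56504690 counts per library, and reads were not analysed here.

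Estimated counts were rounded and tested with edgeR 4.0.16 (R 4.3.3): filterByExpr with a minimum count of 10, which kept 26998 genes, TMM, a quasi-likelihood fit of all 120 libraries in 40 groups, and Benjamini-Hochberg adjustment over all genes, called at 0.05, with 0.32 on the log2 scale as a size limit where stated. The 2 h wells were compared with untreated wells at 0 h. The script was tested on simulated data. The members and lists were chosen with earlier results of these data known. Named members were the 4 highest and 4 lowest called in each of 13 main comparisons (same sign at 4, 8, 16 and 24 h for treatments), a panel of paralogs, and members named for a time after their values were seen. From each other list named for dimerizer at 24 h the 2 genes with the smallest adjusted p were given, except the mitochondrial list, of which only counts are given. Alternatives were RLE and library totals as scaling, TMM without ribosomal protein genes, DESeq2 1.42.0, no filter, limma 3.58.1 on log2(TPM + 1) and log2(TPM + 0.1), a replicate block, each replicate left out, and libraries that stand apart left out. Well numbers did not pair the samples: over 2340 pairs of groups and numbers the median correlation of deviations was 0.002, and 1.88% were over 0.1. Start sequences and positions come from RefSeq (GRCh38.p14). Values of 1 member and 1 marker are not reported here.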

Additional observations from a re-analysis of the deposited data

Results flagged for a closer look

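The treatment effect, as a mean over 4 to 24 h, differed between the Dmr-PERK and Parental lines (interaction in the edgeR fit, adjusted p under 0.05) for 45 members under dimerizer (23.7% of all genes were higher and 23.2% lower), 12 under thapsigargin (11.3% and 14.4%) and 76 under arsenite (23.5% and 18.7%). Under dimerizer the log2 differences, Dmr-PERK minus Parental, were 1.21 for RPL22L1, 0.35 for RPL12, 0.29 for RPL10L and 0.27 for RPL39L, and -0.43 for RPL7A, -0.38 for RPS26, -0.33 for RPS27L and -0.26 for RPS25. Under thapsigargin they were 0.47 for RPL22L1, 0.17 for RPS28, 0.16 for RPL21 and 0.14 for RPL36, and -0.20 for RPL26L1, -0.13 for RPS26, -0.13 for RPLP0 and -0.11 for RPSA. Under arsenite they were 0.16 for RPL22L1, and -0.42 for RPS27L, -0.36 for RPS26, -0.36 for RPL39 and -0.33 for RPL34.

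The effect of a treatment changed between 4 and 24 h (F-test in the same fit) for 82 of 84 members under dimerizer (42.1% of all genes), 84 under thapsigargin (52.2%) and 70 under arsenite (71.2%) in Dmr-PERK cells, and for 37 under thapsigargin (49.9%) and 82 under arsenite (73.1%) in Parental cells. Without the Parental arsenite 24 h library labelled 3 the Parental counts were 61 and 82, beside 51.2% and 70.6% of all genes. The Dmr-PERK arsenite count was then 81, beside 70.8% of all genes, as that library enters the shared spread.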

How the results depend on the processing

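The counts are of members called, higher and lower, and the cause of each change was not tested. The dimerizer mean in Dmr-PERK cells (57) ranged from 42 to 65 over the fits that left out 1 replicate, and Parental dimerizer gave 0 under every alternative. The Dmr-PERK arsenite mean (54) turned to mostly higher with RLE (56) and DESeq2 (55), and lay between 38 and 62 with a replicate left out. The Parental arsenite mean (72) turned to mostly lower with library totals (53) and with limma on log2(TPM + 1) and log2(TPM + 0.1) (66 each). The thapsigargin line difference (12) was 20 with library totals, 31 with limma at either pseudocount, 5 to 27 with a replicate left out, 25 without the libraries that stand apart and 25 without the Parental arsenite 24 h library labelled 3. The arsenite line difference (76) was 50 and 48 with limma. Dimerizer against arsenite (50) turned with RLE (60) and DESeq2 (58) and rose with library totals (76) and limma (79). Thapsigargin against arsenite (67) turned with library totals (64) and limma (76). As a share of counts the summed level was 4.31%, where it was 12.1% of TPM.

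By time, directions turned for Dmr-PERK arsenite at 16 h (35; RLE 46, DESeq2 42) and 24 h (59; library totals 54, limma 69), Parental thapsigargin at 24 h (51; 49 and 50), Parental arsenite at 8 h (20; 50 and 73) and 16 h (34; 58 and 71), and untreated wells at 8 h (Dmr-PERK; RLE 5, DESeq2 6) and 24 h (library totals; 24 in Dmr-PERK and 11 in Parental cells). Counts moved by over 1.5 times without a turn for Dmr-PERK dimerizer at 2 h (49; library totals 31, limma 19) and 4 h (75; limma 45), for Dmr-PERK arsenite at 2 h (12; 28 without that Parental library), 8 h (36; RLE and DESeq2 22, library totals 69, limma 76) and 16 h (35; library totals 75, limma 80, 54 without that library), for Parental arsenite at 2 h (1; library totals 12, DESeq2 2, limma 3, 16 without that library), 4 h (21; RLE and DESeq2 7, library totals 74, limma 71, 44 without that library) and 16 h (34; RLE 61, DESeq2 59), and for untreated wells with library totals in Dmr-PERK cells at 16 h (16; 29) and Parental cells at 8 h (5; 10) and DESeq2 at 4 h (1; 2).

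A part of the values of named members was followed under the alternatives. Of these refitted values, 457 kept direction and call and 8 lost the call. The lost calls given in the text are not all among these 8. With the replicate block the dimerizer mean stayed at 57 (44 higher, 13 lower) and the arsenite line difference at 76, dimerizer against arsenite went from 50 to 49, and in the comparisons and named members refitted with the block no direction turned and no named call was lost; 49 of 120 libraries correlated best with their own number. Leaving out all libraries that stand apart gave no value for the Parental arsenite mean and the arsenite line difference, since these are the 3 Parental arsenite 24 h libraries. The alternative with the library left out was chosen after seeing the data, as was limma at single times.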
